A study of Mus musculus with 18 samples.

Results

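The genes described here are 43 listed cytokines, chemokines, their receptors and the intracellular regulators of their signals, out of 24963 genes with transcripts in the deposited tables. The list was given by name, with earlier results of these data known. All 43 were found. By role they are 21 ligands and 1 secreted antagonist, 15 receptors and 6 intracellular regulators.

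Cytokines and chemokines are secreted proteins that act through receptors on nearby cells, and the ovulating follicle makes several of them. Messages of the IL-6 family pass through gp130, the chain encoded by Il6st, to JAK kinases and STAT3, and SOCS proteins switch that relay off again. IL-1, IL-18, IL-33 and TNF act largely through NF-kB, which IkB-alpha (Nfkbia) and A20 (Tnfaip3) restrain, and chemokines guide leukocytes into tissue.

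Their levels were measured by RNA sequencing of granulosa cells, which surround the oocyte within the follicle, in mice of 3 strains with targeted alleles of Pgr. This gene encodes the progesterone receptor, a hormone-gated transcription factor with a long isoform, PGR-B, and a shorter one, PGR-A. PRKO mice carry the Pgr allele tm1Bwo and lack both isoforms, PRAKO mice carry tm1Omc and lack PGR-A, and PRBKO mice carry tm2Omc and lack PGR-B. Each knockout (KO) group was set against wildtype (WT) mice of its own strain, with 3 libraries in each of the 6 groups analysed here, fewer than the number of replicates the methods state. All mice, WT included, were 21 to 27 days old and received 5 IU equine chorionic gonadotropin (eCG), then 46 h later, by the sample labels, 5 IU human chorionic gonadotropin (hCG), which stands in for the ovulatory hormone surge. The general part of the study's methods gives a shorter interval between the injections. Cells were taken 8 h after hCG by puncturing follicles, and each library pooled 3 mice. The alleles are present in every cell of the mouse and not only in granulosa cells. The p-values measure the spread between such pools.

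Values are TPM, a measure of transcript abundance per length relative to the whole library, summed over the transcripts of a gene. Pgr itself, on chromosome 9, was listed at 1.49 to 2.67 TPM in PRKO KO libraries against 1.73 to 2.09 TPM in PRKO WT, at 8.36 to 12.4 TPM in PRAKO KO against 0.8287 to 1.10 TPM in PRAKO WT, and at 2.62 to 4.88 TPM in PRBKO KO against 1.41 to 6.24 TPM in PRBKO WT. The total did not fall with the KO label in any strain, and such a total does not tell an RNA of the targeted allele from an intact one. KO and WT are therefore the labels of the libraries. Markers of granulosa cells summed to 2868 to 4921 TPM in a library, against 34.3 to 82.0 TPM for 18 markers of macrophages and other leukocytes. The pan-leukocyte gene Ptprc stayed between 0.195 and 0.922 TPM in all libraries, and none of the 18 was under 0.1 TPM throughout. No leukocyte marker was called in any strain. In bulk RNA, fewer cells of a type and less RNA per cell cannot be told apart.

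Genes at 1 TPM or more in 3 or more of a strain's 6 libraries were counted as expressed there and tested. Changes are differences of log2(TPM + 0.5) from limma, with p-values adjusted over all genes tested, and this scale understates the change of low genes. Calls needed both an adjusted p no higher than 0.01 and a log2 change of 1 or more in size. The median change of all genes was not 0. Its log2 value was -0.10 for the PRKO comparison and 0.22 for both others, and changes with that median taken off are given where they matter.

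Of the 43 genes, 34 were expressed in PRKO, 31 in PRAKO and 35 in PRBKO, 31 of them in all 3 strains and 7 in none. The levels split by role. The 15 receptors had a median of 16.3 TPM over the 18 libraries and the 6 intracellular regulators 22.8 TPM, and each of these 21 genes was expressed in all 3 strains. The 22 secreted proteins had a median of 1.15 TPM, and 10 of them averaged under 1 TPM. Among the 22, Cxcl16 counted as expressed in all 3 strains, although its coding transcript was listed at 0 in every library. Only Cx3cl1 (14.2 TPM), a membrane-bound chemokine that also holds cells to each other, and Cxcl1 (10.8 TPM), a neutrophil attractant, averaged over 5 TPM among the secreted proteins. The 7 genes expressed in no strain were Il1a, Il15, Csf2, Tnf, Cxcl10, Ccl7 and Ccl20. Tnf, the ligand that gives the TNF receptors their name, was at most 0.160 TPM in a library, and Ccl20, an attractant of lymphocytes and dendritic cells, was listed at 0 in 16 of 18 libraries. Read depth is not kept in TPM, so no limit can be set on these low values.

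**Figure D1:**
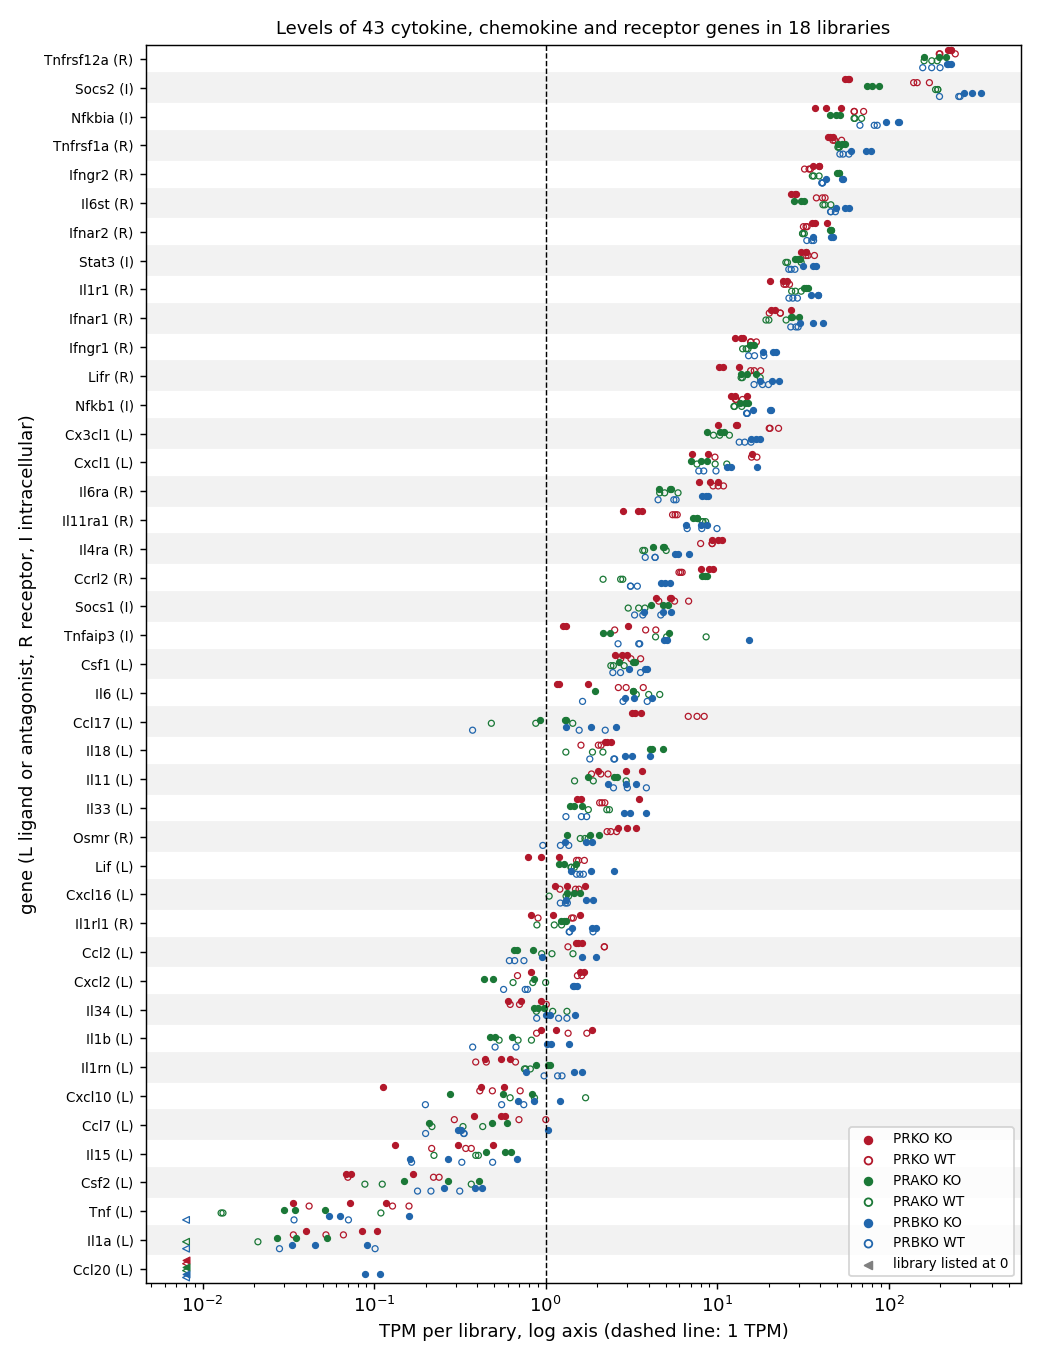
TPM of each of the 43 genes in each of 18 libraries on a log axis, genes ordered by their mean, with filled points for KO and open points for WT and triangles where a library is listed at 0. Receptors and intracellular regulators fill the upper rows, from 202 TPM for Tnfrsf12a, and the rows below 1 TPM hold only secreted proteins.

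The highest of all was Tnfrsf12a, the receptor of TWEAK, with a mean of 202 TPM, above 98.4% of protein-coding genes. It had 230.2, 229.7 and 222 TPM in PRKO KO against 199, 197 and 245 TPM in PRKO WT, 161, 216 and 198 TPM in PRAKO KO against 192, 161 and 178 TPM in PRAKO WT, and 222, 231 and 219 TPM in PRBKO KO against 158, 178 and 199 TPM in PRBKO WT. The groups overlapped in PRKO and PRAKO, and in PRBKO all KO libraries lay above WT with an adjusted p of 0.0924. Tnfrsf1a, the main receptor of TNF, had 47.5, 44.2 and 45.2 TPM in PRKO KO against 48.5, 47.3 and 53.2 TPM in PRKO WT, and 53.8, 50.5 and 55.3 TPM in PRAKO KO against 51.3, 50.6 and 51.6 TPM in PRAKO WT. In PRBKO it had 60.4, 73.4 and 78.5 TPM in KO against 54.2, 52.0 and 58.7 TPM in WT, again with all KO libraries above WT and an adjusted p above 0.05. Neither receptor was called in any strain.

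The 250 bases before the transcript start were taken from RefSeq (build GRCm38.p6) for 36 of the 43 genes, in 47 promoters, since some genes have several starts. Those of Ccl17 and Cx3cl1, neighbours that are both lower in PRKO KO, of Ccrl2 and Il18, which are higher in PRAKO KO, and of Nfkbia, which is lower in PRKO and PRAKO KO, were picked for these changes and are shown 5′ to 3′ on the gene's own strand, with motif matches in capitals. They lie at chr8:94810203-94810452 (plus strand), chr8:94771930-94772179 (plus), chr9:111057519-111057768 (minus), chr9:50554450-50554699 (plus) and chr12:55492648-55492897 (minus). The capitals are TTCNNNGAA, the GAS motif of STAT proteins, in Ccl17, the kappa-B consensus in Ccrl2 and Nfkbia, and AGAACA, the hexamer recognised by PGR, in Il18. Ccrl2 has 3 starts, and only the most upstream is shown. Cx3cl1 held none of the motifs searched.
Ccl17: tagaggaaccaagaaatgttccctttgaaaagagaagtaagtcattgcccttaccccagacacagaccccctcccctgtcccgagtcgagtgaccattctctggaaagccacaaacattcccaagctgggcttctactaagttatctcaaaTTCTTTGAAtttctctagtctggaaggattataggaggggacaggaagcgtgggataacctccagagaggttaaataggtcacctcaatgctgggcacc
Cx3cl1: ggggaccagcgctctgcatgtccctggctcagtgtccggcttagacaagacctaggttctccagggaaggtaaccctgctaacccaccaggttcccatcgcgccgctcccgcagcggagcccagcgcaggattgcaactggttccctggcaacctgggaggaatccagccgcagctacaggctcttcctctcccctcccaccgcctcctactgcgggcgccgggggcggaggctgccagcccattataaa
Ccrl2: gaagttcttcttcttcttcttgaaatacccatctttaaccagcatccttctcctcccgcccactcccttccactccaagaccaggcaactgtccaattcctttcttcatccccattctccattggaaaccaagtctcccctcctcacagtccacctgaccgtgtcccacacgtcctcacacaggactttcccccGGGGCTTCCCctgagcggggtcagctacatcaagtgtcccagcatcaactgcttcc
Il18: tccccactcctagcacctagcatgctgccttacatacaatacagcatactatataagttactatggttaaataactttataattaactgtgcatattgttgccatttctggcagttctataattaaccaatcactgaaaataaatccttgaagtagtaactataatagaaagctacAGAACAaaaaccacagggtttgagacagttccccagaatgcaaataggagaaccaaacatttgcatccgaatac
Nfkbia: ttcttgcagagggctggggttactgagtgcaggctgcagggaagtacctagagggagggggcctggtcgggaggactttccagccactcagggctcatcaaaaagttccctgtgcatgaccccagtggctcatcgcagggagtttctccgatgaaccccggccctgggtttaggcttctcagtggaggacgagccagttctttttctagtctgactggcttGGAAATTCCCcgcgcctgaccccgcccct

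Searched on both strands, AGAACA was found in 8 of the 47 promoters of these genes (17.0%) and in 16.1% of all 32851 promoters of the same length, and the full 15-base palindromic progesterone response element in 0 of 47 and in 0.0609% of all. The full element can contain the hexamer, so their matches can overlap. The promoters with AGAACA were of 7 genes, Ccl20, Ccrl2, Csf1, Il18, Il1r1, Stat3 and Tnfaip3, for Ccrl2 not at the start shown. The kappa-B consensus was found in 12 of 47 (25.5%), each of a different gene, and in 7.25% of all promoters. Those 12 genes were Ccl20, Ccrl2, Csf1, Cxcl1, Cxcl10, Cxcl2, Ifngr2, Il1r1, Il6, Lif, Nfkbia and Tnfaip3. TTCNNNGAA was found in 3 of 47 (6.38%) and in 7.02% of all. A match describes these letters only.

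In PRKO, 2 of the 34 tested genes were called, a share to be read against the 2.14% of all tested genes that were called. Both, Socs2 and Ccl17, fell, as did 1.82% of all genes, while 0.316% of all genes rose. In PRAKO 3 of 31 were called, where 2.05% of all genes were called. Socs2 fell again, as did 1.21% of all genes, and Ccrl2 and Il18 rose, as did 0.841% of all genes. In PRBKO limma called 0 of 35, where 0.133% of all genes were called (0.0419% fell and 0.0907% rose). There 20 of the 35 had an unadjusted p under 0.05, all higher in KO, where 31.1% of all genes had one and 30.1% were higher in KO. An adjusted p of at most 0.05 was reached by 3, Il6ra, Il33 and Ccrl2, and by 3.48% of all genes. With size factors in place of TPM as deposited their adjusted p-values were 0.0937, 0.0539 and 0.0888. The tested genes had a median log2 change of -0.12 for PRKO, 0.11 for PRAKO and 0.33 for PRBKO, beside -0.10, 0.22 and 0.22 over all genes.

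**Figure D2:**
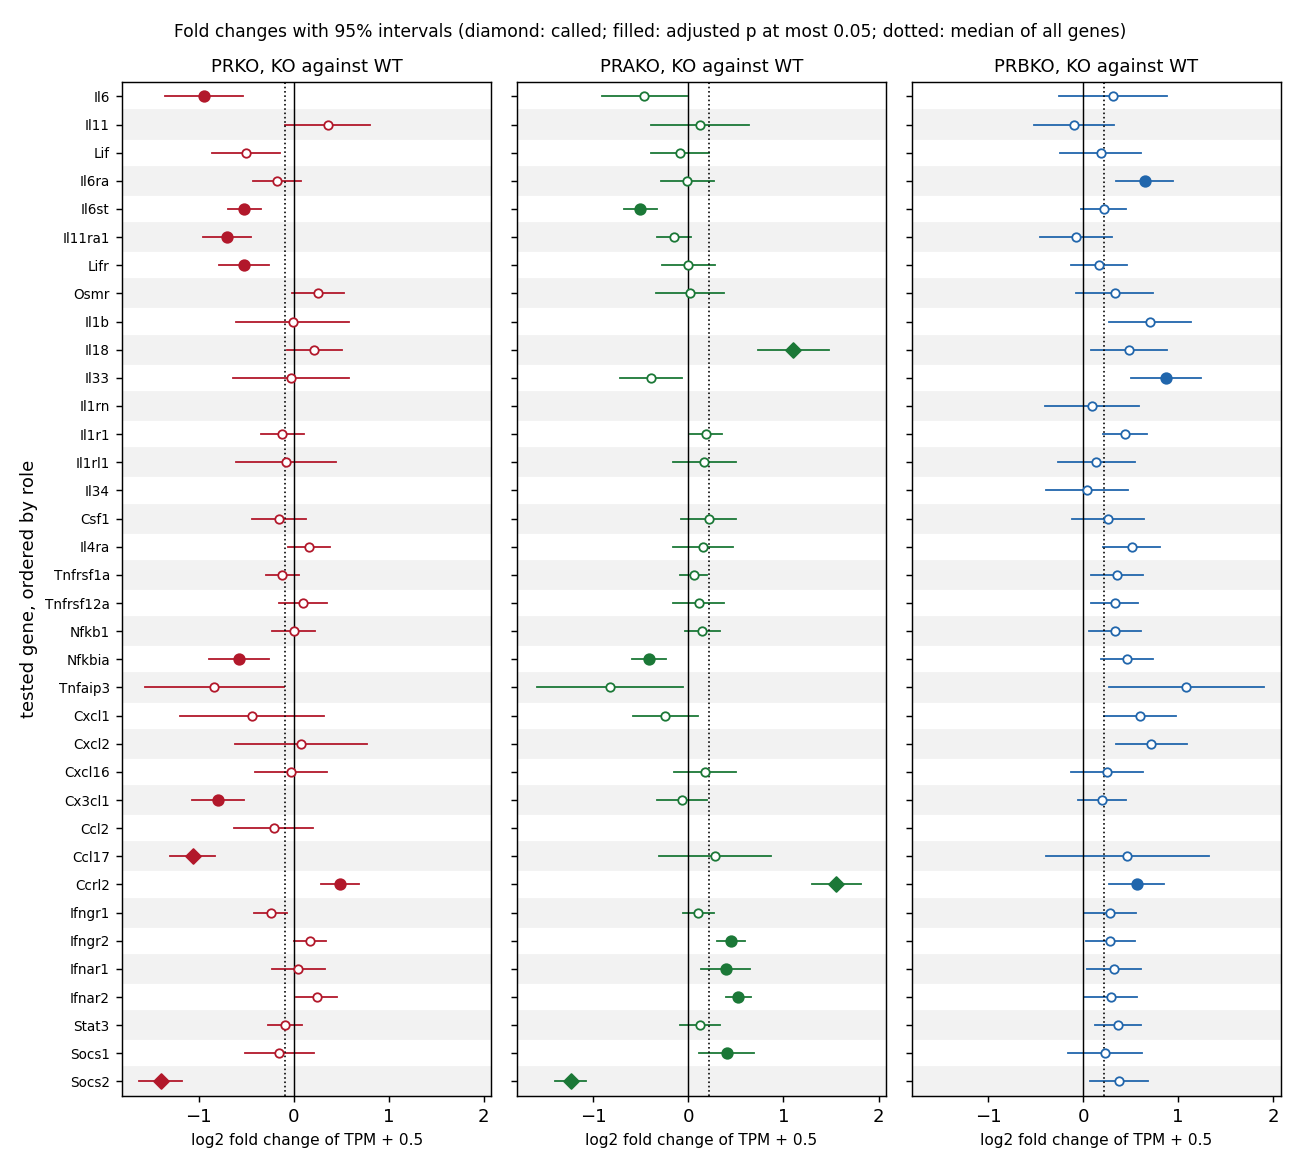
Log2 fold change of TPM + 0.5, KO against WT, with its 95% interval for each tested gene in the 3 strains, ordered by role, with a dotted line at the median of all genes. Socs2 lies at -1.40 in PRKO and -1.24 in PRAKO but at 0.38 in PRBKO, and Ccrl2 lies to the right of 0 in all 3 strains.

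Socs2, on chr10:95383903-95417321, encodes a feedback inhibitor of JAK-STAT signals that is best known for limiting growth hormone. It was the second most abundant of the 43 genes. It had 58.5, 55.9 and 57.8 TPM in PRKO KO against 139.9, 147 and 173 TPM in PRKO WT, and 80.4, 75.2 and 87.3 TPM in PRAKO KO against 193, 188 and 193 TPM in PRAKO WT. In both strains every KO library was far below every WT library. Mean TPM in KO was 37.5% of WT in PRKO and 42.3% of WT in PRAKO. The log2 changes were -1.40 ± 0.10 in PRKO (SE, adjusted p = 0.000288) and -1.24 ± 0.07 in PRAKO (adjusted p = 2.88e-05), or -1.30 and -1.46 beside that median.

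In PRBKO, Socs2 had 274, 344 and 308 TPM in KO against 198, 261 and 256 TPM in WT, so that all KO libraries were above WT, with a change of 0.38 ± 0.14 (adjusted p = 0.112). With size factors or rescaling to protein-coding genes these PRBKO groups overlapped. The difference between strains was tested itself. The PRKO effect minus the PRBKO effect was -1.78 ± 0.16 and the PRAKO effect minus the PRBKO effect -1.62 ± 0.16, both called, while the PRKO and PRAKO effects differed by -0.16. The first and second of these share the PRBKO libraries. Each of the 4 listed transcripts of Socs2 had a lower mean in KO than in WT in PRKO and PRAKO, and a higher one in PRBKO. The main one held 72.1% of the gene in PRKO KO and 74.6% in PRKO WT, 72.4% in PRAKO KO and 70.6% in PRAKO WT, and 71.0% in PRBKO KO and 70.6% in PRBKO WT. The other SOCS gene of the list, Socs1, had a log2 change of -0.15 in PRKO, 0.40 in PRAKO (adjusted p = 0.0401) and 0.23 in PRBKO. Stat3, the transcription factor that SOCS proteins restrain, stayed between 25.2 and 37.7 TPM in all libraries and was called in no strain.

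**Figure D3:**
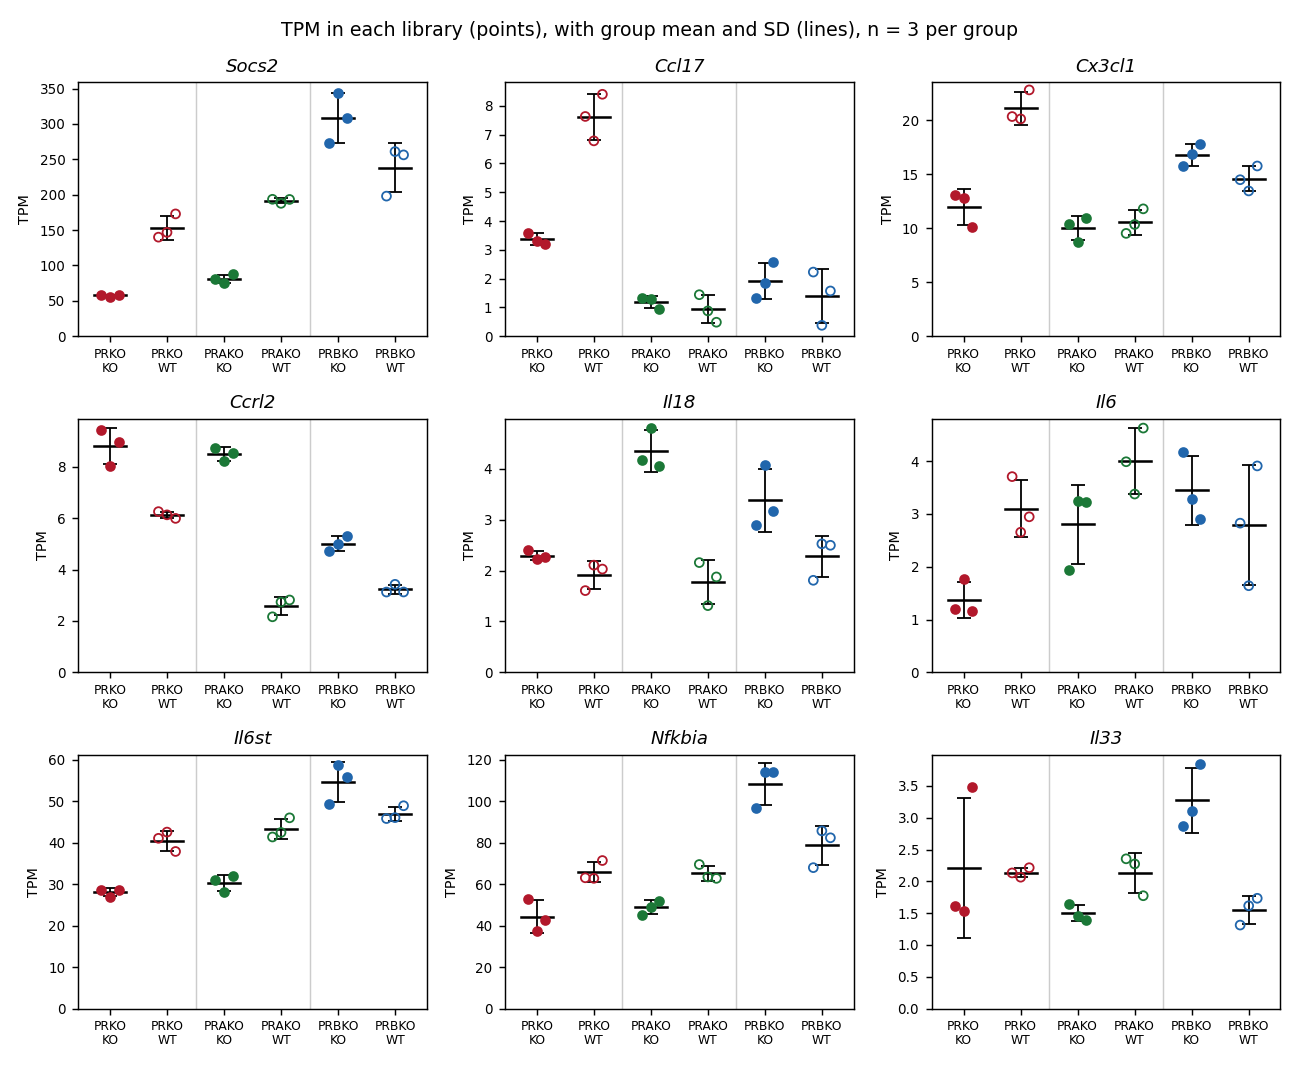
TPM of 9 genes in each library, KO left of WT in each strain, with the group mean and SD (n = 3). Socs2, Il6st and Nfkbia are lower in KO than in WT in PRKO and PRAKO and not in PRBKO, Ccl17 and Cx3cl1 are lower in KO than in WT in PRKO, and Ccrl2 is higher in KO in all 3 strains.

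As deposited, Il6st and Nfkbia had the same order of groups as Socs2 at a smaller size. Il6st had 28.7, 27.0 and 28.5 TPM in PRKO KO against 41.1, 42.6 and 37.9 TPM in PRKO WT, and 31.0, 28.1 and 31.9 TPM in PRAKO KO against 41.4, 42.5 and 46.0 TPM in PRAKO WT. In PRBKO it had 49.4, 58.9 and 55.9 TPM in KO against 45.8, 46.1 and 48.9 TPM in WT. The groups did not overlap in any strain, with KO below WT in PRKO and PRAKO and above it in PRBKO. With size factors the PRBKO groups overlapped, and with rescaling to protein-coding genes every PRBKO KO library lay below WT. The log2 changes were -0.52 ± 0.07 in PRKO (adjusted p = 0.00572), -0.51 ± 0.08 in PRAKO (adjusted p = 0.00343) and 0.22 ± 0.11 in PRBKO (adjusted p = 0.188), all short of the fold that a call asks for. The PRKO effect was 0.74 lower than the PRBKO effect on the log2 scale (adjusted p = 0.00017) and the PRAKO effect 0.72 lower (adjusted p = 0.000435).

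Nfkbia, the inhibitor that holds NF-kB in the cytoplasm and is itself an NF-kB target, had 52.9, 37.3 and 42.8 TPM in PRKO KO against 63.1, 62.9 and 71.5 TPM in PRKO WT, and 45.3, 49.1 and 52.1 TPM in PRAKO KO against 69.5, 63.5 and 62.9 TPM in PRAKO WT. In PRBKO it had 96.7, 114 and 114 TPM in KO against 68.0, 85.7 and 82.4 TPM in WT. KO lay wholly below WT in PRKO and PRAKO and wholly above it in PRBKO. The log2 changes were -0.58 ± 0.13 in PRKO (adjusted p = 0.0403), -0.42 ± 0.08 in PRAKO (adjusted p = 0.0076) and 0.46 ± 0.12 in PRBKO (adjusted p = 0.0667). The PRKO effect minus the PRBKO effect was -1.04 ± 0.17 (adjusted p = 0.000446) and was called. With the median of all genes taken off it was -0.73. The call was lost with size factors (-0.70), with rescaling to protein-coding genes (-0.63) and with the replicate block (-1.03, adjusted p = 0.0114). It was also lost without PRKO KO replicate 2, PRKO WT replicate 3, PRBKO KO replicate 2 or 3, or PRBKO WT replicate 1, each time at less than 1 in size and at -0.92 in the smallest case. For Nfkbia the PRAKO effect minus the PRBKO effect was -0.88 (adjusted p = 0.00385).

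The other NF-kB genes of the list did not reach an adjusted p of 0.05 in a strain. Nfkb1, which encodes the p105 and p50 subunit, changed by less than 0.01 on the log2 scale in PRKO and by 0.14 in PRAKO and 0.33 in PRBKO. Tnfaip3, which encodes the ubiquitin-editing enzyme A20, had 15.4, 5.11 and 4.91 TPM in PRBKO KO against 3.54, 2.64 and 3.49 TPM in PRBKO WT. A single KO library, replicate 1, stood far above the others, and the change was 1.08 ± 0.36 (adjusted p = 0.0961). In PRKO and PRAKO the Tnfaip3 groups overlapped, with log2 changes of -0.83 in both. For Tnfaip3 the PRKO effect minus the PRBKO effect was -1.92 ± 0.58 (adjusted p = 0.0241) and was not called. With single libraries left out it was -1.41 in the smallest case.

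Among the 8 genes of the IL-6 family, 4 had an adjusted p of at most 0.05 in PRKO, where 9.96% of all genes did, and all 4 were lower in KO. Beside Il6st they were Il6, Il11ra1 and Lifr. Il6, the founding cytokine of the family, had 1.20, 1.77 and 1.17 TPM in PRKO KO against 3.71, 2.65 and 2.95 TPM in PRKO WT, with no overlap and a change of -0.94 ± 0.17 (adjusted p = 0.0173). In PRAKO it had 1.94, 3.24 and 3.22 TPM in KO against 3.99, 3.38 and 4.63 TPM in WT (log2 change -0.46 ± 0.19, adjusted p = 0.0906), again without overlap, and in PRBKO 4.17, 3.28 and 2.90 TPM in KO against 2.83, 1.64 and 3.91 TPM in WT, with overlap. Il11ra1, the receptor of IL-11, averaged 3.31 ± 0.444 TPM in PRKO KO and 5.68 ± 0.177 TPM in PRKO WT (SD, n = 3 each), a log2 change of -0.70 ± 0.11 (adjusted p = 0.00818). Lifr, the receptor of leukaemia inhibitory factor, averaged 11.5 ± 1.61 TPM in PRKO KO and 16.7 ± 1.14 TPM in PRKO WT, a change of -0.53 ± 0.11 (adjusted p = 0.0284).

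The remaining members of the family, Lif, Il11, Il6ra and Osmr, did not reach an adjusted p of 0.05 in PRKO, and their log2 changes ran between -0.50 for Lif and 0.36 for Il11. In PRAKO 1 of the 8, Il6st, had an adjusted p of at most 0.05, where 34.5% of all genes did. In PRBKO it was Il6ra alone, where 3.48% of all genes did. Il6ra, the chain that binds IL-6, had 8.63, 8.86 and 8.11 TPM in PRBKO KO against 4.52, 5.59 and 5.76 TPM in PRBKO WT, without overlap (log2 change 0.65 ± 0.13, adjusted p = 0.0371). Of its 2 listed transcripts, 1 had 4.61, 5.25 and 2.99 TPM in PRBKO KO against 1.58, 1.47 and 1.51 TPM in PRBKO WT. The other had 4.02, 3.61 and 5.11 TPM in PRBKO KO against 2.95, 4.12 and 4.25 TPM in PRBKO WT, so that only the first differed without overlap. Transcript levels were not tested.

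Ccl17 encodes a chemokine that attracts T cells carrying CCR4 and is made largely by dendritic cells. It had 3.59, 3.31 and 3.20 TPM in PRKO KO against 7.63, 6.78 and 8.40 TPM in PRKO WT. The groups were far apart, with a mean in KO that was 44.3% of WT and a log2 change of -1.06 ± 0.10 (adjusted p = 0.00107), or -0.97 relative to the median of all genes. In PRAKO it had 1.31, 1.31 and 0.926 TPM in KO against 1.44, 0.876 and 0.482 TPM in WT, and in PRBKO 1.32, 1.83 and 2.56 TPM in KO against 2.23, 0.375 and 1.57 TPM in WT, with overlap in both. Its level in the WT groups, given without a test, was 7.61 ± 0.81 TPM in PRKO WT, 0.932 ± 0.481 TPM in PRAKO WT and 1.39 ± 0.938 TPM in PRBKO WT (SD, n = 3 each). The difference between the PRKO and PRAKO effects was not called, nor was that between PRKO and PRBKO, which was -1.53 ± 0.47 (adjusted p = 0.0251). Without PRKO WT replicate 3 the PRKO change was -0.99 and no longer called, and relative to size factors it was -0.96.

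Cx3cl1 is the next gene upstream on chromosome 8, with 26.95 kb between them, and was singled out after its values were seen. It had 13.1, 12.8 and 10.1 TPM in PRKO KO against 20.3, 20.1 and 22.8 TPM in PRKO WT, without overlap and with a change of -0.80 ± 0.12 (adjusted p = 0.00633). It had 10.4, 8.75 and 10.96 TPM in PRAKO KO against 9.52, 10.3 and 11.8 TPM in PRAKO WT, with overlap, and averaged 16.8 ± 0.995 TPM in PRBKO KO and 14.6 ± 1.16 TPM in PRBKO WT. With size factors or rescaling to protein-coding genes, every PRAKO KO library lay below every PRAKO WT library for Cx3cl1. The PRKO effect on Cx3cl1 was 1.00 lower than the PRBKO effect on the log2 scale (adjusted p = 0.000351), just short of a call, and 0.73 lower than the PRAKO effect (adjusted p = 0.0147). Beside these chemokines, leukocyte markers in PRKO had a sum of 52.7 to 82.0 TPM in KO against 57.6 to 65.6 TPM in WT. The T-cell marker Cd3e among them had 0.588 to 1.48 TPM in PRKO KO against 1.62 to 1.84 TPM in PRKO WT. Other leukocyte markers went the other way, with higher means in PRKO KO for Ptprc, Cd68, Csf1r, C1qa, Cd79a, S100a8, S100a9 and Lyz2. The 15 leukocyte markers tested in PRKO had a median log2 change of 0.08. Summed endothelial markers (55.5 to 72.1 TPM in PRKO KO against 74.6 to 79.6 TPM in PRKO WT), smooth muscle markers (32.4 to 36.1 TPM against 37.7 to 43.5 TPM) and oocyte markers (164 to 191 TPM against 209 to 275 TPM) were also lower in KO without overlap. The summed erythroid markers were higher in KO, with 183 to 318 TPM in PRKO KO against 54.3 to 134 TPM in PRKO WT. The part of these cells in the result was not tested.

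The remaining chemokines were low or, with TPM as deposited, did not separate in PRKO and PRAKO. Cxcl1 averaged 10.7 ± 4.70 TPM in PRKO KO and 14.2 ± 3.94 TPM in PRKO WT, and 7.94 ± 0.860 TPM in PRAKO KO and 9.58 ± 1.88 TPM in PRAKO WT, with overlap in both. With size factors or rescaling to protein-coding genes, Cxcl1 in PRAKO KO lay wholly below PRAKO WT. In PRBKO Cxcl1 had 11.4, 17.2 and 12.1 TPM in KO against 8.35, 9.84 and 7.82 TPM in WT, and its neighbour Cxcl2, 10.78 kb away, 1.44, 1.53 and 1.46 TPM in KO against 0.784, 0.569 and 0.760 TPM in WT. Both were without overlap and short of the threshold, with adjusted p-values of 0.0719 and 0.0501. For Cxcl1 this separation was lost with rescaling to protein-coding genes. Ccl2, the monocyte attractant, was tested within PRKO only (log2 change -0.21, adjusted p = 0.511). As deposited, its KO libraries lay wholly below WT in PRAKO (means 0.724 and 1.16 TPM) and wholly above WT in PRBKO (1.52 and 0.674 TPM). For Ccl2 the PRKO effect minus the PRBKO effect was -0.96 ± 0.27 (adjusted p = 0.0172). The PRAKO effect minus the PRBKO effect was -1.18, and neither was called. Cxcl16 had changes of -0.03, 0.18 and 0.25 in PRKO, PRAKO and PRBKO. Its coding transcript was listed at 0 in all libraries, and 1 non-coding transcript held 84.4% to 96.5% of the gene in each group.

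Ccrl2, on chr9:111054834-111057518, encodes an atypical receptor that binds chemerin and presents it to other cells without signalling itself. It was the gene of the list with the largest rise. It had 8.73, 8.21 and 8.53 TPM in PRAKO KO against 2.16, 2.74 and 2.82 TPM in PRAKO WT, or 3.30 times the WT mean, a log2 change of 1.56 ± 0.11 (adjusted p = 9.72e-05) and 1.34 beside the median change. In PRKO it had 9.42, 8.03 and 8.95 TPM in KO against 6.25, 6.13 and 5.99 TPM in WT, and in PRBKO 4.73, 4.98 and 5.32 TPM in KO against 3.12, 3.43 and 3.13 TPM in WT. Every KO library was above every WT library in all 3 strains, and the changes outside PRAKO were 0.49 ± 0.08 in PRKO (adjusted p = 0.0124) and 0.56 ± 0.13 in PRBKO (adjusted p = 0.0491), neither called.

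The PRKO effect on Ccrl2 minus the PRAKO effect was -1.07 ± 0.13 (adjusted p = 0.000561) and was called. Without PRAKO WT replicate 1 it was -0.97 and not called, and under size factors -0.78. The KO levels were 8.80 ± 0.706 TPM in PRKO and 8.49 ± 0.262 TPM in PRAKO, and the WT levels 6.12 ± 0.132 TPM in PRKO and 2.57 ± 0.357 TPM in PRAKO (SD, n = 3 each). The PRAKO effect minus the PRBKO effect was 0.99 ± 0.13 (adjusted p = 0.000101), just short of the fold for a call.

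Il18, on chr9:50554700-50581841, encodes an IL-1 family cytokine that drives interferon-gamma production. It had 4.17, 4.81 and 4.06 TPM in PRAKO KO against 2.16, 1.31 and 1.88 TPM in PRAKO WT, without overlap, a log2 change of 1.10 ± 0.16 (adjusted p = 0.00289) and 0.88 relative to the median. The call was lost without PRAKO KO replicate 2, 3 or 4 or WT replicate 2, at log2 changes of 0.94 to 1.14, and under size factors, at 0.93. Il18 had 2.40, 2.22 and 2.27 TPM in PRKO KO against 1.61, 2.11 and 2.03 TPM in PRKO WT, and 2.89, 4.07 and 3.18 TPM in PRBKO KO against 1.81, 2.53 and 2.50 TPM in PRBKO WT. In both strains KO lay above WT without overlap, with changes of 0.22 ± 0.12 (adjusted p = 0.332) and 0.48 ± 0.18 (adjusted p = 0.114). Ccrl2 and Il18 both lie on chromosome 9, which carries the targeted Pgr locus, at 102.086 and 41.586 Mb from it.

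The other IL-1 family genes were called in no strain. Il33, an alarmin kept in the nucleus, had 2.87, 3.10 and 3.85 TPM in PRBKO KO against 1.31, 1.62 and 1.73 TPM in PRBKO WT (log2 change 0.87 ± 0.16, adjusted p = 0.0307), without overlap. In PRAKO the order was the other way, with 1.64, 1.46 and 1.39 TPM in KO against 2.35, 2.27 and 1.77 TPM in WT (log2 change -0.40 ± 0.14, adjusted p = 0.0585). In PRKO it had 1.62, 1.53 and 3.48 TPM in KO against 2.13, 2.06 and 2.21 TPM in WT, where 1 KO library lay above all WT libraries and the other 2 below. The PRAKO effect minus the PRBKO effect on Il33 was -1.27 ± 0.28 (adjusted p = 0.0117). Il1r1, the signalling receptor of IL-1, averaged 37.7 ± 2.00 TPM in PRBKO KO and 27.7 ± 1.58 TPM in PRBKO WT (log2 change 0.44 ± 0.10, adjusted p = 0.0522). Il1b, the main secreted agonist of that receptor, averaged 1.15 ± 0.190 TPM in PRBKO KO and 0.518 ± 0.148 TPM in PRBKO WT (adjusted p = 0.0680).

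Of the 4 interferon receptor genes, 3 had an adjusted p of at most 0.05 in PRAKO, where 34.5% of all genes did, all higher in KO and none called. Ifnar2, Ifnar1 and Ifngr2, chains of the receptors of type I and type II interferon, lie in a row on chromosome 16, with Il10rb, the IL-10 receptor chain, between the first and second. Ifngr2 had 51.5, 49.7 and 51.6 TPM in PRAKO KO against 36.6, 35.9 and 39.3 TPM in PRAKO WT, a log2 change of 0.45 ± 0.06 (adjusted p = 0.00275). Ifnar2 averaged 46.0 ± 0.295 TPM in PRAKO KO and 31.8 ± 0.416 TPM in PRAKO WT (0.53 ± 0.06, adjusted p = 0.000784), and Ifnar1 28.2 ± 1.67 TPM in KO and 21.5 ± 3.25 TPM in WT (0.39 ± 0.11, adjusted p = 0.0306). KO lay above WT without overlap for all 3, as it did for 45.0% of all genes, and for Ifnar1 this was lost with rescaling to protein-coding genes. Relative to the median of all genes the changes were 0.23, 0.31 and 0.17 in the order given. Il10rb, named after its values were seen, averaged 29.1 TPM in PRAKO KO and 16.5 TPM in PRAKO WT (log2 change 0.79 ± 0.08, adjusted p = 0.000588).

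Outside PRAKO the 4 listed receptors did not reach an adjusted p of 0.05. Ifngr2 had 39.1, 39.1 and 36.2 TPM in PRKO KO against 32.3, 35.0 and 34.4 TPM in PRKO WT, and 43.2, 54.4 and 53.6 TPM in PRBKO KO against 41.2, 40.7 and 41.2 TPM in PRBKO WT. KO was above WT without overlap in both strains, with log2 changes of 0.17 ± 0.07 and 0.29 ± 0.12. Ifngr1, the ligand-binding chain for interferon-gamma on chromosome 10, had changes of -0.24 in PRKO, 0.11 in PRAKO and 0.28 in PRBKO. Il4ra, the shared receptor chain of IL-4 and IL-13, was called in no strain and stood higher in PRKO WT, at 8.90 ± 0.773 TPM, than in PRAKO WT (4.17 ± 0.761 TPM) or PRBKO WT (4.17 ± 0.311 TPM), a comparison given without a test.

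No haematopoietic cytokine of the list was called. Csf1, which macrophages need to live, was expressed in all 3 strains at 2.40 to 3.89 TPM in a library and had log2 changes of -0.16, 0.21 and 0.26 in PRKO, PRAKO and PRBKO. Il34, the other ligand of the same receptor, was expressed in PRBKO only and averaged 1.18 ± 0.263 TPM in KO and 1.14 ± 0.227 TPM in WT. Il15 was at most 0.683 TPM in a library and Csf2 at most 0.424 TPM, and neither was tested.

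In PRBKO the tested genes leaned upward as a group, and this lean depended on the scaling. KO and WT libraries did not overlap for 20 of the 35 (57.1%), KO above WT in all 20, where 34.8% of all genes did not overlap (33.5% above, 1.21% below). Protein-coding genes held 50.9% to 61.2% of TPM in PRBKO KO libraries against 42.7% to 47.4% in PRBKO WT, most of the rest being 1 small RNA, Rn7s2. With size factors in place of TPM as deposited, 12 genes had KO above WT without overlap (15.1% of all genes) and 2 had KO below it (15.8% of all genes). With TPM rescaled to protein-coding genes the counts were 10 (7.36% of all genes) and 4 (25.9% of all genes). Il6st, Il1r1, Tnfrsf1a, Tnfrsf12a, Nfkb1, Cx3cl1, Ifngr2 and Socs2 lay above WT without overlap under neither of these scalings. In PRKO 15 of 34 did not overlap (5 above, 10 below), where 31.9% of all genes did not (6.37% above, 25.6% below). In PRAKO 14 of 31 did not (8 above, 6 below), where 51.3% of all genes did not (45.0% above, 6.3% below).

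The scaling moved the median of the tested genes to -0.01 in PRKO, -0.10 in PRAKO and 0.10 in PRBKO with size factors, and to -0.02, -0.10 and 0.02 with protein-coding rescaling. It turned the sign of 5 genes in PRKO and 10 in PRAKO under either, and of 7 and 12 in PRBKO, none of which had an adjusted p of at most 0.05 as deposited. Among all called genes in PRAKO, 58.9% fell with TPM as deposited and 76.4% with size factors. The percentages for PRKO were 85.2% and 79.7%.

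Between strains, 36 of the 43 genes were tested. The PRKO effect minus the PRBKO effect gave 2 calls, Nfkbia and Socs2, where 3.75% of all genes were called and 3.62% in the same direction, and 18 genes at an adjusted p of at most 0.05, all with the lower effect in PRKO, where 27.5% of all genes passed. The PRKO effect minus the PRAKO effect gave 1 call, Ccrl2 (0.510% of all genes), and the PRAKO effect minus the PRBKO effect 1, Socs2 (2.01% of all genes). At an adjusted p of at most 0.05 these gave 4 genes (13.8% of all) and 7 genes (6.02% of all). Each pair of these differences shares the libraries of a strain. The median of all genes was itself -0.31 in the first of these differences and -0.30 in the second, and Il6ra, Il1r1, Tnfrsf1a and Stat3 were among the 18, with differences of -0.82, -0.56, -0.47 and -0.46.

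Lists of further genes of these pathways were counted the same way, to be read against the 2.14% of all genes called in PRKO, 2.05% in PRAKO and 0.133% in PRBKO. Of 24 other chemokines and chemokine receptors, 11 were tested in PRKO and 1 fell, Cxcr4, the receptor of CXCL12, with 24.6 ± 0.434 TPM in PRKO KO and 135 ± 6.15 TPM in PRKO WT (log2 change -2.43 ± 0.07, SD and SE, n = 3 each). None of 12 tested was called in PRAKO or in PRBKO. For Cxcr4 the PRAKO effect minus the PRBKO effect was -1.25 and the PRKO effect minus the PRAKO effect -1.59, both called. The 24 genes summed to 173 to 182 TPM in PRAKO KO against 248 to 264 TPM in PRAKO WT. The study reports less Cxcr4 transcript in both PRKO and PRAKO, and a level like WT in PRBKO. That Cxcr4 was not called here in PRAKO does not mean that its level was unchanged there. Of 37 other cytokines and receptors, 28 were tested in PRKO, where Tnfsf11, the ligand RANKL, fell (1.67 TPM in KO and 6.47 TPM in WT) and Clcf1, a ligand of the IL-6 family, rose (10.1 TPM in KO and 4.73 TPM in WT). In PRAKO 27 of the 37 were tested. Csf2rb, the shared chain of the GM-CSF receptor, rose there (2.81 TPM in KO and 0.951 TPM in WT) and Tnfrsf21, a death-domain receptor, fell (2.82 TPM in KO and 7.24 TPM in WT). None of 28 was called in PRBKO.

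Of 42 other genes of NF-kB and JAK-STAT signalling and its feedback, none of the 41 tested in PRKO was called. In PRAKO 2 of 42 rose, where 0.841% of all genes did: Cish, a feedback inhibitor of STAT5 signals in the same family as Socs2, with 15.04 TPM in KO and 5.84 TPM in WT (log2 change 1.30 ± 0.11), and Bcl3, an NF-kB cofactor, with 31.1 TPM in KO and 15.1 TPM in WT (1.02 ± 0.07). In PRBKO 1 of 41 rose, where 0.0907% of all genes did: Socs3, the feedback inhibitor of gp130 signals, with 29.3 ± 2.97 TPM in KO and 12.97 ± 1.60 TPM in WT (1.15 ± 0.13, adjusted p = 0.00579). Among feedback inhibitors Socs2 fell in PRAKO, where Cish rose. The calls of Bcl3 and Socs3 were lost under size factors, at log2 changes of 0.81 and 0.91. The endothelial marker Cdh5 also fell in PRAKO (9.33 TPM in KO and 27.97 TPM in WT), with a summed level of 8 endothelial markers of 22.8 to 28.7 TPM in KO against 44.1 to 50.5 TPM in WT. Of 5 theca markers 1 fell in PRAKO, with a sum of 25.5 to 31.7 TPM in KO against 33.2 to 35.6 TPM in WT. Of 13 granulosa markers 2 rose there, with a sum of 4088 to 4639 TPM in KO against 2868 to 3057 TPM in WT. Leukocyte markers in PRAKO summed to 34.3 to 42.96 TPM in KO against 43.2 to 46.0 TPM in WT, and the part of these cell types in the results for Ccrl2, Il18 and Socs2 was not tested. No marker was called in PRBKO. Summed endothelial (47.5 to 53.8 TPM in PRBKO KO against 36.6 to 46.7 TPM in PRBKO WT), erythroid (222 to 358 TPM against 74.8 to 205 TPM) and surface epithelium markers (64.0 to 93.3 TPM against 48.0 to 63.9 TPM) were higher in KO there, as deposited. The surface epithelium ranges almost touched. These 3 sets had median log2 changes of 0.20, 1.23 and 0.57 in the order given, beside 0.22 over all genes.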

How the data were processed

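RNA from 18 libraries was measured with 101-bp paired-end reads after a kit that depletes ribosomal RNA (strandness not stated). The authors trimmed reads with AdapterRemoval where required and quantified transcripts with Salmon, and the deposited values are TPM per RefSeq transcript, 42251 listed, although the methods name GENCODE, and tool versions are not given in the sources used here. TPM keeps no read depth, so neither count tests nor counting intervals were possible. Of these transcripts 42072 were matched to 24963 genes through RefSeq (GRCm38.p6) and summed, and the 179 unmatched ones held 0.963 to 1.61% of TPM. The small RNA Rn7s2 held 24.1 to 47.8% of TPM in a library. Genes at 1 TPM in at least 3 of 6 libraries were tested per strain, and in at least 3 of 18 for differences between strains, with limma 3.58.1 (R 4.3.3, trend) on log2(TPM + 0.5) and two-sided Benjamini-Hochberg adjustment. The study used limma with voom weights, which need counts. The script was tested on simulated data.

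Groups came from the sample labels. The 43 genes and the pathway and marker lists were chosen with earlier results of these data known. Values in every library were given for listed genes called in a strain or in a difference between strains, for those whose log2 change was 0.8 or more in size at an adjusted p up to 0.05, and for the 6 with the highest mean TPM. The others were given by group, and of the pathway lists the called genes were named. The library values of Cx3cl1, Cxcl1, Cxcl2, Il6ra and Tnfaip3, the other single-gene values and the markers named fall outside this rule and were chosen after their values were seen. Alternatives were pseudocounts of 1 and 0.1, no filter, a mean of 5 TPM, size factors, rescaling to protein-coding genes, 1 fit of all 18 libraries, a replicate block, a looser threshold and leaving out each library. Levels and promoters were tabulated and drawn with Python 3.11.15, pandas 2.3.3 and matplotlib 3.10.9.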

Additional observations from a re-analysis of the deposited data

Results flagged for a closer look

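The effect of the Pgr allele on 3 of the genes differed between strains by a test of the difference itself. For Socs2 the PRKO effect minus the PRBKO effect was -1.78 on the log2 scale and the PRAKO effect minus the PRBKO effect -1.62. For Nfkbia, the inhibitor of NF-kB, the PRKO effect minus the PRBKO effect was -1.04, where the median of all genes was -0.31, and the call was lost with size factors, rescaling to protein-coding genes and the replicate block. For Ccrl2 the PRKO effect minus the PRAKO effect was -1.07, where the median of all genes was -0.30, and the call was lost under the same 3 settings. The differences that involve PRBKO share its libraries.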

How the results depend on the processing

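Of the 43 genes none with an adjusted p of at most 0.05 changed direction under an alternative run, while weaker changes did, as given with the scalings: the median of the tested genes in PRAKO was 0.11 as deposited and -0.10 with size factors or rescaling. The number of the 43 genes called in PRKO (2) was 1 with a pseudocount of 1, with size factors and with all 18 libraries in 1 fit, and 1 to 2 when single libraries were left out, 1 without PRKO WT replicate 3. For the PRKO minus PRAKO difference (1) it was 0 with a pseudocount of 1, size factors, rescaling to protein-coding genes and the replicate block, and 0 to 1 without single libraries, 0 without PRAKO WT replicate 1. For PRKO minus PRBKO (2) it was 1 with size factors, rescaling or the block, and 1 to 4 without single libraries: 4 without PRKO KO replicate 1, PRBKO KO replicate 1 or PRBKO WT replicate 4, and 1 without PRBKO KO replicate 2 or 3. For PRAKO minus PRBKO (1) it was 3 with a pseudocount of 0.1, size factors or rescaling, and 1 to 2 without single libraries, 2 without PRAKO KO replicate 3, PRAKO WT replicate 2 or 3, PRBKO KO replicate 1 or 3, or PRBKO WT replicate 1 or 4. At an adjusted p of at most 0.05 with no fold limit the counts were 9 in PRKO (9.96% of all genes), 9 in PRAKO (34.5%) and 3 in PRBKO (3.48%), and 4 (13.8%), 18 (27.5%) and 7 (6.02%) for PRKO minus PRAKO, PRKO minus PRBKO and PRAKO minus PRBKO. With 5 TPM in place of 1 TPM, 21, 19 and 18 genes counted as expressed in PRKO, PRAKO and PRBKO. Causes were not tested.

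Deviations of same-numbered libraries had correlations from -0.15 to 0.15, and those of differently numbered ones from -0.28 to 0.22. In PRAKO and PRBKO the KO and WT libraries do not share all replicate numbers. The check therefore cannot settle whether the numbers pair samples, and the replicate block is incomplete in those strains. With the replicate block 1 gene was called in PRBKO, Tnfaip3 at 1.41 on the log2 scale, and calls over all genes were 258 in PRKO, 464 in PRAKO and 302 in PRBKO, beside 297, 285 and 19 without it. Over all genes in PRBKO the 19 calls became 4 with no filter, 34 at a mean of 5 TPM, 3 with size factors, 7 with rescaling and 38 in 1 fit of all libraries. The share of calls that fell in PRBKO was 31.6% as deposited, 66.7% with size factors and 57.1% with rescaling, and in PRAKO 76.7% with rescaling. Socs2 kept its call under every alternative run in PRKO and in PRAKO. With 3 pooled libraries a group and no read depth, small changes of genes near 1 TPM could not be resolved.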
